A study of Mus musculus with 8 samples.

Results

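The genes described here are 4 genes of the plasminogen activator system, out of 48440 gene identifiers counted. They are *Plau*, *Plat*, *Plaur* and *Serpine2*. They were picked by name, with their values in these libraries already seen, so their differences between genotypes are given as a description without a test. All 4 passed the filter on low counts, as did 17049 genes in all.

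The data are RNA sequencing of mouse embryonic stem (ES) cells collected on day 1 of a differentiation in culture, as 8 libraries, 2 of each genotype. Every line was made from MK6, which is a C57BL/6J ES cell line. All cells were differentiated without feeder cells, in N2/B27 medium with the GSK3 inhibitor CHIR99021, which activates Wnt signalling. The question was how forms of the gene *Tbxt* that lack exon 6 change gene expression. Wild-type cells carry unedited *Tbxt*. TbxtΔexon6/Δexon6 cells lack exon 6 on both alleles, and TbxtΔexon6/+ cells lack it on one. TbxtinsASAY/insASAY cells hold a pair of inserted human Alu elements, AluSx1 and AluY, around exon 6 on both alleles. The TbxtΔexon6/Δexon6 libraries come from different clones. How many clones stand behind each of the other genotypes is not stated in the sources used here, so the spread between libraries may be that of 1 line. The deletions were made in feeder-free culture, and the insertion was made on mouse embryonic fibroblasts with a selection cassette that was removed afterwards. Genotype, clone and editing history therefore cannot be told apart.

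Plasminogen is a secreted precursor that becomes plasmin, a protease that degrades fibrin and other matrix proteins. The urokinase-type activator, encoded by *Plau*, and the tissue-type activator, encoded by *Plat*, make the cut. The urokinase receptor, encoded by *Plaur*, is a lipid-anchored surface protein that holds urokinase at the cell membrane. Serpins, among them *Serpine2* (protease nexin 1), trap the activators, and members of the LDL receptor family take up the complexes. Early mouse embryos and their derived cells make several of these proteins, and the system is best known for cell invasion and tissue remodelling.

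Each library had between 24618587 and 28445952 reads assigned to genes. Library scaling factors (TMM, trimmed mean of M values) ran from 0.975 to 1.03. The TbxtΔexon6/Δexon6 libraries differed most from each other, with a chi-square per degree of freedom of 11.4 against 2.80 to 3.47 in the other genotypes. *Tbxt* gave 47 and 42 reads in wild-type, 26 and 22 in TbxtΔexon6/Δexon6, 39 and 54 in TbxtΔexon6/+ and 30 and 29 in TbxtinsASAY/insASAY libraries. Reads per gene do not separate transcripts with and without exon 6, so these numbers do not check the labels. ES cell markers were present in every library, and their 13 genes summed to between 1190 and 1789 CPM, the reads on a gene scaled to library size. The 12 primitive streak and early mesoderm markers summed to only 24.4 to 39.1 CPM, and *Msgn1* had no read in 3 of the genotypes. In bulk RNA, fewer cells that express a gene and less RNA per cell cannot be told apart.

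The plot of CPM by library shows the range of each gene, and levels below are TMM-scaled CPM unless a scale per kilobase is named. The 4 genes lie on 4 chromosomes of GRCm38 and overlap no other annotated gene on either strand. *Plau* (ENSMUSG00000021822) spans chr14:20836660-20843385, with 11 exons in its principal transcript. *Plat* (ENSMUSG00000031538) spans chr8:22757727-22782844, with 14 exons. *Plaur* (ENSMUSG00000046223) spans chr7:24462484-24475968, with 7 exons. *Serpine2* (ENSMUSG00000026249) spans chr1:79794197-79861180 on the minus strand, with 9 exons.

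**Figure D1:**
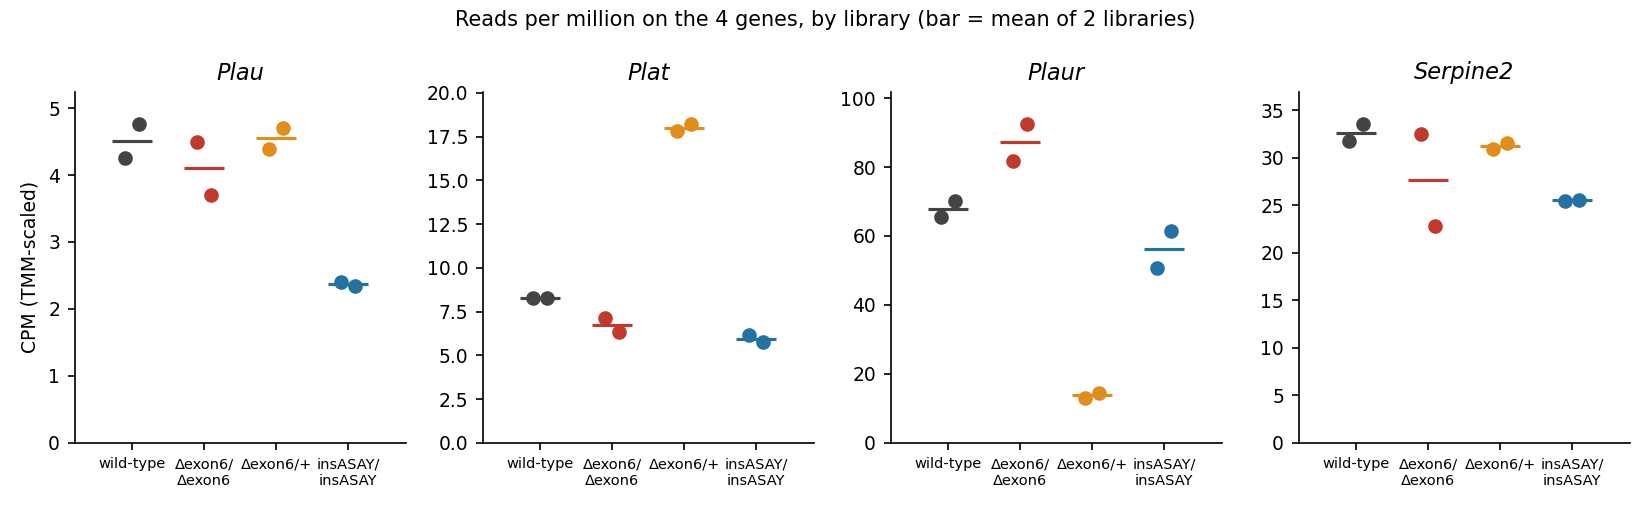
TMM-scaled CPM (y axis, from 0, a separate scale for each gene) of *Plau*, *Plat*, *Plaur* and *Serpine2* in the 8 libraries, grouped by genotype on the x axis. Points are libraries and horizontal bars are means of 2. *Plaur* lies at 12.9 and 14.5 CPM in TbxtΔexon6/+ and at 50.8 or more elsewhere, while *Plat* lies at 17.8 and 18.2 CPM there and at 8.30 or less elsewhere.

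*Plaur*, the urokinase receptor, had the widest range. It stood at 65.5 and 70.1 CPM in wild-type libraries, 81.8 and 92.5 in TbxtΔexon6/Δexon6, 50.8 and 61.4 in TbxtinsASAY/insASAY and 12.9 and 14.5 in TbxtΔexon6/+ libraries. The TbxtΔexon6/+ libraries were far below all others, and no pair of genotypes overlapped. The number of reads behind these levels was 1395 to 2523 in the other genotypes and 342 and 355 in TbxtΔexon6/+. Against wild-type, the log2 fold change was -2.31 (SE 0.103) in TbxtΔexon6/+, a level 4.95-fold lower. It was 0.36 (SE 0.0867) in TbxtΔexon6/Δexon6 and -0.27 (SE 0.0883) in TbxtinsASAY/insASAY. The last value was -0.14 without the first TbxtinsASAY/insASAY library and -0.42 without the second. The 2 deletion genotypes were thus on opposite sides of wild-type. The difference of TbxtΔexon6/+ from TbxtΔexon6/Δexon6 was -2.67 (SE 0.102), the largest between any 2 genotypes for the 4 genes. Only 20 of the 17049 tested genes had a more negative log2 fold change than *Plaur* in TbxtΔexon6/+ against wild-type.

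*Plat*, the tissue-type activator, was highest where *Plaur* was lowest. It stood at 8.30 and 8.30 CPM in wild-type, 7.13 and 6.31 in TbxtΔexon6/Δexon6, 6.16 and 5.75 in TbxtinsASAY/insASAY and 17.8 and 18.2 in TbxtΔexon6/+ libraries. The TbxtΔexon6/+ libraries were above all others, both homozygous lines lay below wild-type, and no pair of genotypes overlapped. Against wild-type, its log2 fold change was 1.12 (SE 0.104) in TbxtΔexon6/+, a 2.17-fold higher level. In TbxtΔexon6/Δexon6 it was -0.31 (SE 0.115), and in TbxtinsASAY/insASAY it was -0.48 (SE 0.116). Without the first TbxtinsASAY/insASAY library the last value was -0.53, past the threshold of 0.5. TbxtΔexon6/+ exceeded TbxtΔexon6/Δexon6 by 1.42 (SE 0.107) on the log2 scale. For this gene 378 tested genes had a larger positive log2 fold change in TbxtΔexon6/+ against wild-type.

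*Plau*, the urokinase-type activator and the ligand of the *Plaur* product, had the lowest CPM of the 4. Its reads numbered 118 and 128 in wild-type, 111 and 101 in TbxtΔexon6/Δexon6, 116 and 115 in TbxtΔexon6/+ and 66 and 64 in TbxtinsASAY/insASAY libraries. In CPM that is 4.26 and 4.76, 4.49 and 3.70, 4.39 and 4.70, and 2.40 and 2.34 in the same order. The insertion libraries stood below all others, and the other 3 genotypes overlapped. The log2 fold change in TbxtinsASAY/insASAY was -0.92 (SE 0.170) against wild-type, a level 1.90-fold lower, and -0.94 (SE 0.171) against TbxtΔexon6/+. Against wild-type it was 0.01 (SE 0.156) in TbxtΔexon6/+, where the receptor was lowest, and -0.14 (SE 0.158) in TbxtΔexon6/Δexon6. The last value was -0.28 without the first TbxtΔexon6/Δexon6 library and -0.0042 without the second. The difference of TbxtinsASAY/insASAY from TbxtΔexon6/Δexon6 was -0.78 (SE 0.173), and it no longer passed both thresholds without either of the insertion libraries, at -0.80 and -0.77.

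*Serpine2*, the inhibitor, varied least of the 4 between genotypes. It stood at 31.7 and 33.6 CPM in wild-type, 31.0 and 31.6 in TbxtΔexon6/+, 25.5 and 25.6 in TbxtinsASAY/insASAY and 32.5 and 22.8 in TbxtΔexon6/Δexon6 libraries. The last pair are the different clones, and they spanned nearly the whole range of the gene. The insertion libraries fell between the 2 clones and below wild-type and TbxtΔexon6/+. Against wild-type the log2 fold change was -0.35 (SE 0.120) in TbxtinsASAY/insASAY, -0.24 (SE 0.120) in TbxtΔexon6/Δexon6 and -0.06 (SE 0.119) in TbxtΔexon6/+. Without the first TbxtΔexon6/Δexon6 library the value for that genotype was -0.51, past the threshold of 0.5, and without the second it was -0.0053.

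The order of the genotypes differed from gene to gene. For *Plaur* it was TbxtΔexon6/Δexon6, wild-type, TbxtinsASAY/insASAY and TbxtΔexon6/+, with no overlap between neighbours. For *Plat* it was TbxtΔexon6/+, wild-type, TbxtΔexon6/Δexon6 and TbxtinsASAY/insASAY, and the last pair were separated by only 0.15 CPM. For *Plau* and *Serpine2* 2 of the 3 neighbouring pairs overlapped. All 4 genes had a lower mean in TbxtinsASAY/insASAY than in wild-type.

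**Figure D2:**
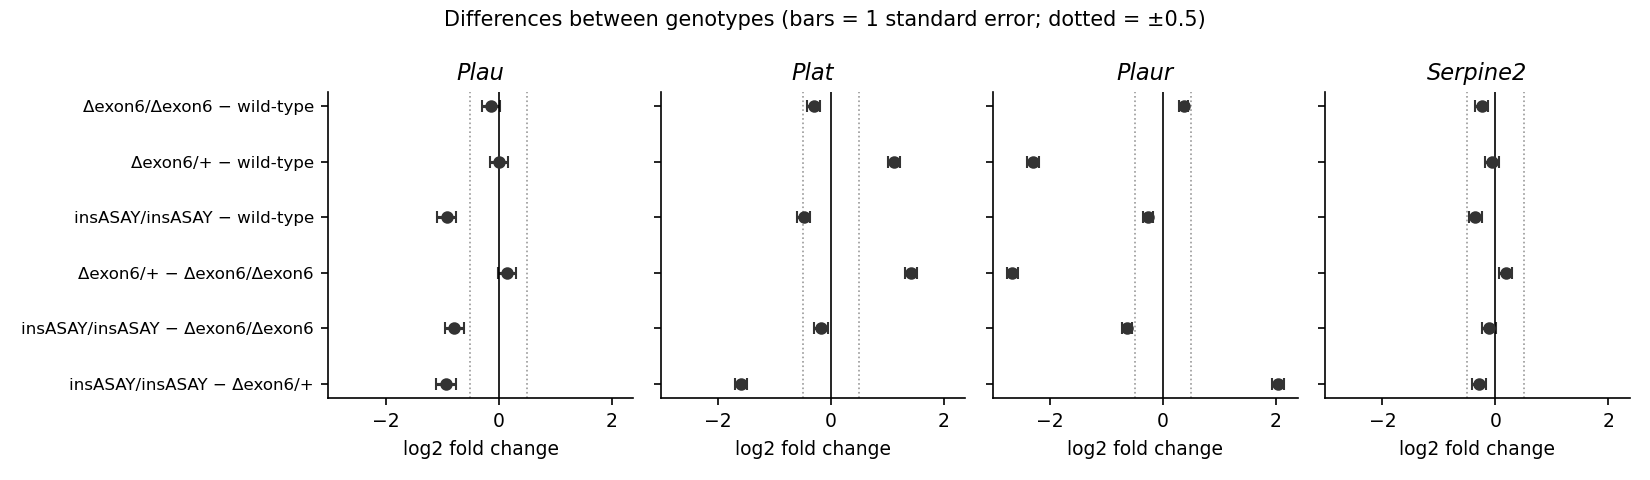
log2 fold change (x axis) of each gene in the 6 comparisons between genotypes (y axis, the first genotype minus the second), with bars of 1 standard error and dotted lines at ±0.5. *Plaur* reaches -2.31 and *Plat* 1.12 in TbxtΔexon6/+ against wild-type, *Plau* lies at -0.78 to -0.94 in the 3 comparisons with TbxtinsASAY/insASAY, and *Serpine2* stays within ±0.5 in all 6.

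A gene was counted as past both thresholds at an adjusted p under 0.05 (edgeR quasi-likelihood test, Benjamini-Hochberg) and a log2 fold change over 0.5 in size. Since the genes were picked with these values known, nothing is read from their counts. In TbxtΔexon6/+ against wild-type 2 of the 4 passed, where 13.5% of all tested genes did. In TbxtinsASAY/insASAY against wild-type 1 passed, beside 21.3%. In TbxtΔexon6/Δexon6 against wild-type 0 passed by edgeR and 0 by DESeq2, beside 12.7% of tested genes. There 2 of the 4 had an unadjusted p under 0.05 in edgeR, beside 45.4% of tested genes. The 3 comparisons share the wild-type libraries. Between edited genotypes, 2 passed in TbxtΔexon6/+ against TbxtΔexon6/Δexon6 beside 22.2%, 2 in TbxtinsASAY/insASAY against TbxtΔexon6/Δexon6 beside 5.16%, and 3 in TbxtinsASAY/insASAY against TbxtΔexon6/+ beside 27.5%. Libraries of 2 genotypes failed to overlap for 2 of the 4 genes in TbxtΔexon6/Δexon6, 3 in TbxtΔexon6/+ and 4 in TbxtinsASAY/insASAY against wild-type. With 2 libraries per genotype the same was true of 67.6%, 69.3% and 77% of tested genes. Between edited genotypes 2 of the 4 genes failed to overlap in TbxtΔexon6/+ against TbxtΔexon6/Δexon6 (72.7% of tested genes), 3 in TbxtinsASAY/insASAY against TbxtΔexon6/Δexon6 (56.2%) and 4 in TbxtinsASAY/insASAY against TbxtΔexon6/+ (79.2%).

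Levels of different genes were compared per kilobase of the principal transcript. In wild-type cells *Plaur* stood at 45.0 CPM per kilobase, *Serpine2* at 14.8, *Plat* at 3.29 and *Plau* at 1.93. The receptor transcript was thus the most abundant per length, and the transcript of its ligand the least. The ratio of *Plaur* to *Plau* per kilobase was 23.9 and 22.9 in wild-type, 28.3 and 38.8 in TbxtΔexon6/Δexon6, 32.9 and 40.7 in TbxtinsASAY/insASAY and 4.58 and 4.80 in TbxtΔexon6/+ libraries. The TbxtΔexon6/+ libraries stood well below every other library. The ratio of *Serpine2* to *Plat* per kilobase was 1.99 and 1.98 in TbxtΔexon6/+ and between 4.13 and 5.21 in the other libraries. The ratio of *Plat* to *Plau* was 3.76 and 3.60 in TbxtΔexon6/+, and 1.81 and 1.62 in wild-type libraries. The order of these 2 activators depends on the length used in 3 of the genotypes. Over the union of all annotated exons the mean ratio of *Plat* to *Plau* was 0.70 in wild-type, 0.62 in TbxtΔexon6/Δexon6 and 0.95 in TbxtinsASAY/insASAY cells, against 1.5 in TbxtΔexon6/+ cells, where *Plat* was the higher on both lengths.

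The promoters of *Plaur* and *Serpine2* are shown because these 2 of the 4 genes are matched in the RefSeq promoter table (GRCm38.p6). Each run gives the 150 bases before the annotated start, 5′ to 3′ on the strand of the gene. Capitals mark matches to the AP-1 motif TGAGTCA or the PEA3/Ets motif AGGAAG on either strand. The *Plaur* run is chr7:24462333-24462482, plus strand, and the *Serpine2* run is chr1:79858666-79858815, minus strand, which lies inside the longer GENCODE gene.
Plaur: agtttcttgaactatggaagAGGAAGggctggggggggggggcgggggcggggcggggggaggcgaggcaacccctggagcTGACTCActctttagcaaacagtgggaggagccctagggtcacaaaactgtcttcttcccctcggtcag
Serpine2: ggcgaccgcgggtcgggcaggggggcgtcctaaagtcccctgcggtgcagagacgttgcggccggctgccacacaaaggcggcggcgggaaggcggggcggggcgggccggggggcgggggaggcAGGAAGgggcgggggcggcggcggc

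The *Plaur* window held 1 AP-1 match on the minus strand, at positions -69 to -63 from the start, and a PEA3/Ets match at -130 to -125. A further PEA3/Ets match lay past the start, at 17 to 22, outside the run printed above. The *Serpine2* window held no AP-1 match and a PEA3/Ets match at -25 to -20. Of 32851 promoters in windows of 300 bases, 5.20% held the AP-1 motif and 35.4% the PEA3/Ets motif. GC boxes (GGGCGG) numbered 3 in the *Plaur* and 6 in the *Serpine2* window, some of them overlapping, and 35.7% of promoters held at least 1. Neither window held the TCF/LEF motifs CTTTGAT or CTTTGAA, the T-box half-site AGGTGTG or the TATA box TATAAA, found in 8.65%, 5.84% and 13.6% of promoters. GC content was 59.6% and 78.8% over the 250 bases before the start, beside a median of 52.4%. A match is a run of letters and says nothing of binding.

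AP-1 and Ets proteins are transcription factors that act at the known regulatory elements of *Plau* and *Plaur*. Of 13 genes for such factors and for Egr1, all of them tested, 5 fell and 1 rose in TbxtΔexon6/+ against wild-type, 4 fell in TbxtinsASAY/insASAY and 1 rose in TbxtΔexon6/Δexon6. That is 46.2%, 30.8% and 7.69% of the 13, beside 13.5%, 21.3% and 12.7% of all tested genes. The median log2 fold change of the 13 was -0.30, -0.42 and 0.03, beside -0.00059, -0.0051 and -0.0096 over all tested genes. The factors named next were chosen after their values were seen. *Junb*, a Jun-family subunit of AP-1, stood at 38.3 and 32.1 CPM in wild-type, 36.9 and 30.1 in TbxtΔexon6/Δexon6, 13.7 and 13.0 in TbxtΔexon6/+ and 14.0 and 15.8 in TbxtinsASAY/insASAY libraries. It was low in the same 2 genotypes as *Fosl2*, a Fos-family subunit, with 107 and 102, 125 and 89.0, 42.6 and 39.2, and 28.9 and 39.0 CPM in that order. *Fosl1*, another Fos-family subunit, had 32 and 26 reads in wild-type and 7 and 10 in TbxtΔexon6/+ libraries, a log2 fold change of -1.65 (SE 0.371, adjusted p = 0.00422, edgeR). Other factors of the list were higher in TbxtΔexon6/+ than in wild-type. *Ets1*, an Ets factor, stood at 37.0 ± 3.17 CPM (SD, n = 2) against 22.0 ± 1.85, and passed both thresholds. *Jun*, the founding subunit of AP-1, stood at 169 ± 5.75 CPM against 146 ± 4.59, with a log2 fold change of 0.21, under the threshold of 0.5. Whether these factors bear on the level of *Plaur* was not tested.

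The rest of the system was described by a list of 62 genes in 4 roles, of which 46 passed the filter on low counts. *Plg*, which encodes plasminogen itself, and *Serpinb2*, which encodes another serpin inhibitor of the activators, had no read in any library. So did 8 others of the list. A count of 0 allows up to 3 reads, which is 0.105 to 0.122 CPM in these libraries. Reads for the receptor, both activators and the inhibitor were thus found without reads for *Plg*, whose product the activators cut. In TbxtΔexon6/+ against wild-type 12 of the 46 fell and 1 rose, and 28.3% passed beside 13.5% of all tested genes, of which 6.89% fell and 6.6% rose. In TbxtΔexon6/Δexon6 13 fell and 5 rose, or 39.1% beside 12.7% (6.59% fell and 6.12% rose), and without the second library of that genotype 10 passed in all. In TbxtinsASAY/insASAY 16 fell and 4 rose, or 43.5% beside 21.3% (9.85% fell and 11.5% rose). The median log2 fold change of the 46 was -0.24, -0.15 and -0.36 in the same order.

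**Figure D3:**
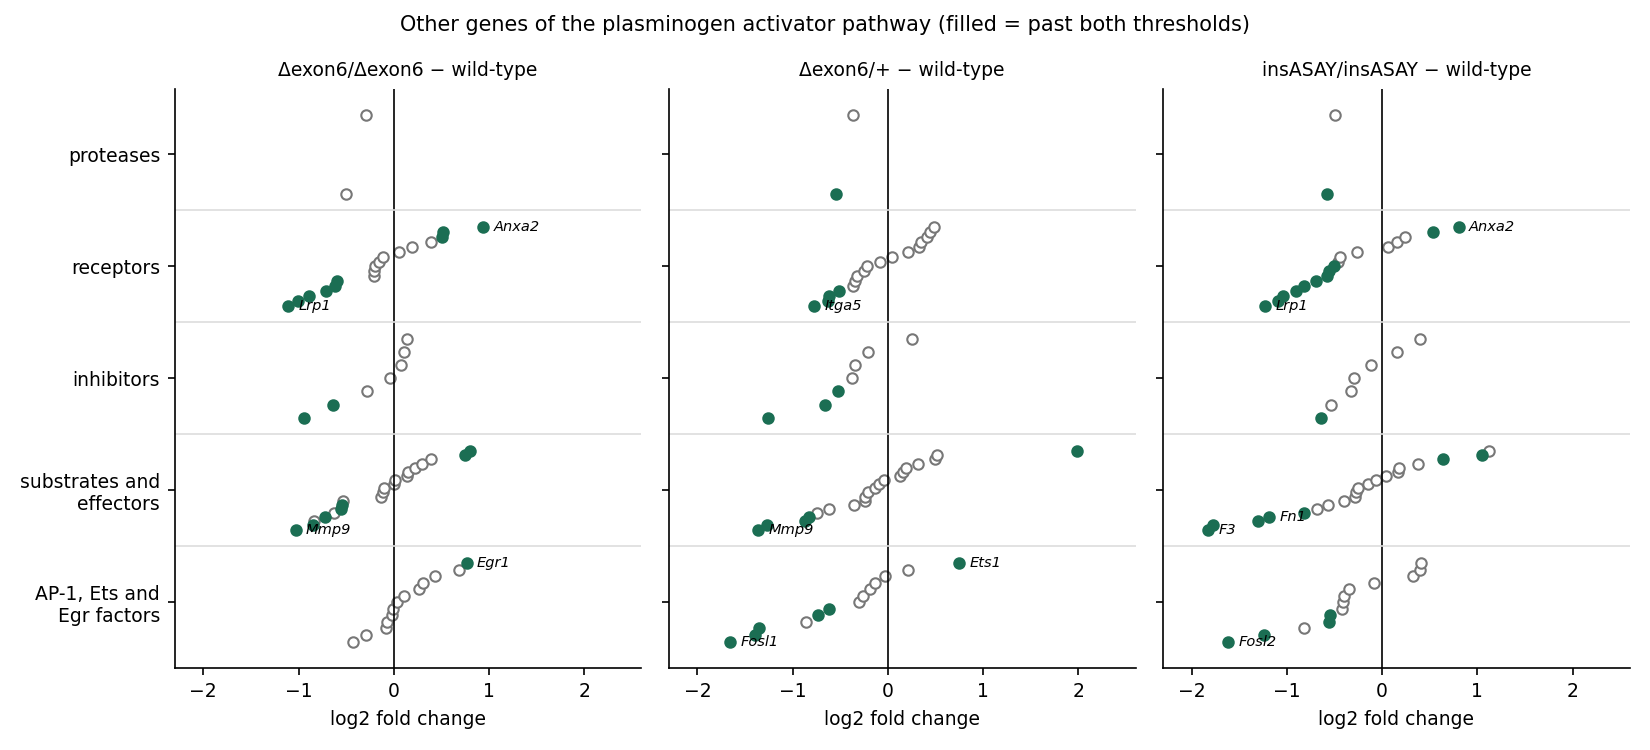
log2 fold change against wild-type (x axis) of the tested genes of the list by role, and of the 13 upstream factors, in the 3 edited genotypes. Each point is a gene, filled where it passed both thresholds, and some are named; 12 of 46 list genes fell in TbxtΔexon6/+, 13 in TbxtΔexon6/Δexon6 and 16 in TbxtinsASAY/insASAY.

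Of the 7 tested inhibitors on the list, 3 fell in TbxtΔexon6/+, 2 in TbxtΔexon6/Δexon6 and 1 in TbxtinsASAY/insASAY. That is 42.9%, 28.6% and 14.3% of the 7, beside 13.5%, 12.7% and 21.3% of all tested genes. *Serpinb6a*, an intracellular serpin, fell by 0.52 on the log2 scale in TbxtΔexon6/+. Its mean was 69.2 CPM in TbxtinsASAY/insASAY and 52.4 in wild-type. Among the 17 tested receptors and binding proteins, 6 fell and 3 rose in TbxtΔexon6/Δexon6, 4 fell in TbxtΔexon6/+, and 9 fell and 2 rose in TbxtinsASAY/insASAY. That is 52.9%, 23.5% and 64.7% of the 17, beside 12.7%, 13.5% and 21.3% of all tested genes. *Lrp1*, which takes up complexes of activator and inhibitor and recycles the urokinase receptor, stood at 106 and 98.4 CPM in wild-type and 108 and 103 in TbxtΔexon6/+ libraries. It was lower in TbxtΔexon6/Δexon6, at 58.5 and 36.7, and in TbxtinsASAY/insASAY, at 41.5 and 45.9. Its log2 fold change against wild-type was -1.11 (adjusted p = 0.000161, edgeR) and -1.23 (adjusted p = 2.42e-05, edgeR) in these 2 homozygous lines and 0.04 (adjusted p = 0.841, edgeR) in TbxtΔexon6/+. *Lrp1* was thus lower in both homozygous lines and not in the line where *Plaur* was lowest. The related uptake receptors *Lrp2* and *Sorl1* fell in both homozygous lines too, *Lrp2* by 0.62 and 1.09 and *Sorl1* by 0.71 and 0.82 on the log2 scale. *Vldlr*, an uptake receptor of the LDL receptor family as well, rose by 0.51 in TbxtΔexon6/Δexon6. Its mean was 61.0 CPM there, 59.9 in TbxtΔexon6/+, 35.7 in TbxtinsASAY/insASAY and 42.7 in wild-type.

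*Anxa2*, which encodes a cell-surface binding protein for plasminogen and the tissue-type activator, stood at 65.9 and 68.3 CPM in wild-type, 104 and 154 in TbxtΔexon6/Δexon6, 115 and 119 in TbxtinsASAY/insASAY and 41.9 and 44.8 in TbxtΔexon6/+ libraries. It rose by 0.94 and 0.80 on the log2 scale in the homozygous lines, and in TbxtΔexon6/+ its log2 fold change was -0.63 (adjusted p = 0.00283, edgeR). *Eno1*, a glycolytic enzyme that also binds plasminogen at the cell surface, rose by 0.54 in TbxtinsASAY/insASAY. *Plgrkt*, a plasminogen receptor, had a log2 fold change of 0.44 (adjusted p = 0.00796, edgeR) in TbxtΔexon6/+, under the threshold of 0.5 on size. *Igf2r*, which binds the urokinase receptor and carries latent TGF-β, fell by 1.00 in TbxtΔexon6/Δexon6. Integrins are surface receptors that act together with the urokinase receptor. The integrin chain gene *Itga5* had log2 fold changes of -0.77 in TbxtΔexon6/+ and -0.70 in TbxtinsASAY/insASAY. *Itga3* had log2 fold changes of -0.62 in TbxtΔexon6/+ and -0.504 in TbxtinsASAY/insASAY, and passed both thresholds in each. *Itgav* fell by 0.51 in TbxtΔexon6/+, and *Itgb1* fell by 0.55 in TbxtinsASAY/insASAY.

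Proteases that cut plasminogen or pro-urokinase were few, with 2 of 7 tested. *St14* (matriptase) fell by 0.55 in TbxtΔexon6/+, and *Hpn* (hepsin), named after its values were seen, fell by 0.58 in TbxtinsASAY/insASAY. That is 1 of 2 in each, beside 13.5% and 21.3% of all tested genes. In TbxtΔexon6/Δexon6 neither passed both thresholds, with log2 fold changes of -0.29 for *St14* and -0.50 for *Hpn*. Both genes had lower means in both of the other edited lines. Mean *St14* was 151 CPM in wild-type, 104 in TbxtΔexon6/+ and 107 in TbxtinsASAY/insASAY. Mean *Hpn* was 54.2, 42.1 and 36.1 CPM in the same order. Among the 20 tested substrates and effectors, 4 fell and 1 rose in TbxtΔexon6/+, while 5 fell and 2 rose in each of the homozygous lines. That is 25% of the 20 in TbxtΔexon6/+ and 35% in each homozygous line, beside 13.5% of all tested genes in TbxtΔexon6/+, 12.7% in TbxtΔexon6/Δexon6 and 21.3% in TbxtinsASAY/insASAY. *Mmp9*, a matrix metalloprotease, had log2 fold changes of -1.36 in TbxtΔexon6/+, -1.03 in TbxtΔexon6/Δexon6 and -1.31 in TbxtinsASAY/insASAY. *Tgfb1*, whose latent product plasmin can release, fell by 1.27 in TbxtΔexon6/+, from 12.9 and 13.3 CPM in wild-type to 5.53 and 5.31. *Timp3*, an inhibitor of metalloproteases, fell by 0.87 in TbxtΔexon6/+ and by 1.78 in TbxtinsASAY/insASAY. *Fn1* (fibronectin), a matrix substrate, fell by 0.84 in TbxtΔexon6/Δexon6 and by 1.19 in TbxtinsASAY/insASAY. *F3* (tissue factor), the trigger of coagulation, fell by 1.83 in TbxtinsASAY/insASAY, from 49.4 and 49.7 CPM to 12.7 and 15.2. *Mmp2*, another matrix metalloprotease, fell by 0.72 in TbxtΔexon6/Δexon6. Its mean was 33.2 CPM in wild-type, 20.2 in TbxtΔexon6/Δexon6, 18.8 in TbxtinsASAY/insASAY and 36.3 in TbxtΔexon6/+.

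The genes nearest to each of the 4 were found over 14281 genes that averaged 1 CPM or more, as the root mean square (RMS) difference of log2 CPM centred on the mean of each gene over the 8 libraries. For *Plaur* they were *Sfn* (14-3-3 sigma, 0.148), *Lgals3* (galectin-3, 0.223) and *Gbp3* (a guanylate-binding protein, 0.253). *Sfn* averaged 41.5 CPM in wild-type, 60.1 in TbxtΔexon6/Δexon6, 42.9 in TbxtinsASAY/insASAY and 8.78 in TbxtΔexon6/+. For *Plat* they were *Efnb1* (ephrin B1, 0.0747), *Sv2a* (a synaptic vesicle protein, 0.0830) and *Gpc3* (glypican-3, 0.0880). *Sv2a* and *Gbp3* lie on chromosome 3, whose 848 tested genes had a median log2 fold change of 0.32 in TbxtΔexon6/+ against wild-type. That median was -0.0053 in TbxtΔexon6/Δexon6 and -0.012 in TbxtinsASAY/insASAY. Some genes counted in the lists, *F3* among them, lie on this chromosome too. For *Plau* the nearest were *Egfr* (the EGF receptor, 0.0899), *Rdh11* (a retinol dehydrogenase, 0.0965) and *Man1a* (a mannosidase of glycan processing, 0.0998). *Egfr*, itself in the receptor list, averaged 10.5 CPM in TbxtinsASAY/insASAY and 18.7 to 21.6 CPM in the other genotypes. For *Serpine2* they were *Icosl* (an immune co-stimulatory ligand, 0.0466), *Chrnb4* (an acetylcholine receptor chain, 0.0538) and *Alox12* (a lipoxygenase, 0.0541), which share its split between the TbxtΔexon6/Δexon6 clones.

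**Figure D4:**
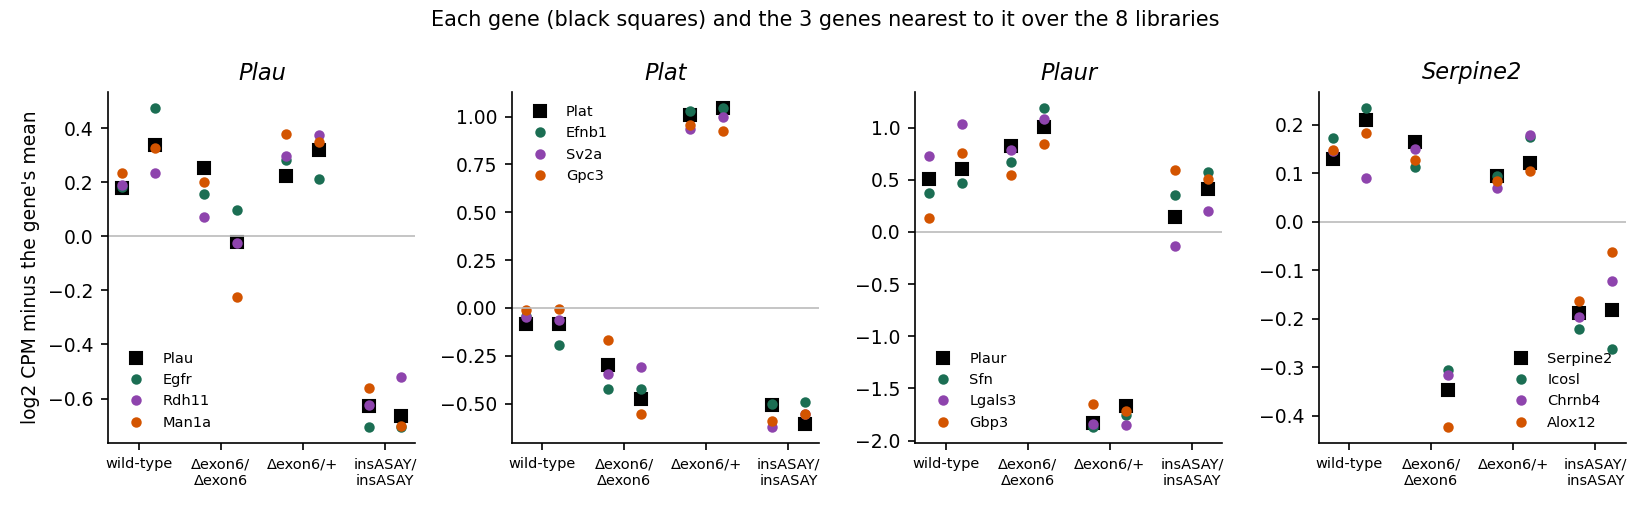
log2 CPM minus the mean of the gene over the 8 libraries (y axis, a separate scale for each panel), by genotype (x axis), for each gene (black squares) and the 3 genes nearest to it (coloured circles). Each symbol is a library. *Plaur* and *Sfn*, 0.148 apart by RMS, are lowest in TbxtΔexon6/+, and *Plat* and *Efnb1*, 0.0747 apart, are highest there.

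The genes beside the 4 on the chromosome were described in the same way. Of 24 neighbours, 3 on each side, 1 passed in TbxtΔexon6/+ against wild-type, 2 in TbxtΔexon6/Δexon6 and 4 in TbxtinsASAY/insASAY, beside 13.5%, 12.7% and 21.3% of all tested genes. *Smg9* and *Cadm4*, on either side of *Plaur*, had log2 fold changes of -0.03 and -0.32 in TbxtΔexon6/+. *Ikbkb* and *Ap3m2*, on either side of *Plat*, had values of 0.08 and 0.06 there. *Ap3m2*, 4510 bases away, passed both thresholds in TbxtΔexon6/Δexon6 at -0.79 and in TbxtinsASAY/insASAY at -0.94, and *Plat* also lay below wild-type in both. *Ikbkb*, on the other side, went the opposite way in the same genotypes, at 0.41 and 0.49, under the threshold of 0.5. *Kcnn4*, a potassium channel gene near *Plaur* that is named after its values were seen, was the 1 neighbour that passed in TbxtΔexon6/+, at -0.64. It passed as well in TbxtΔexon6/Δexon6 at -0.68, where *Plaur* lay above wild-type, and in TbxtinsASAY/insASAY at -0.76. *Camk2g* and *Vcl*, on either side of *Plau*, had values of 0.01 and -0.56 in TbxtinsASAY/insASAY, and *Vcl* passed both thresholds. *Mrpl44* and *Gm5529*, on either side of *Serpine2*, had values of 0.18 and 0.18 in TbxtΔexon6/Δexon6. The medians of the 4 chromosomes lay between -0.08 and 0.09 on the log2 scale in all 6 comparisons.

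Markers of other cell types differed between genotypes as well. The 12 fibroblast markers summed to 56.2 to 62.2 CPM in wild-type, 64.7 to 67.1 in TbxtΔexon6/+, 44.4 to 45.7 in TbxtΔexon6/Δexon6 and 38.4 in both TbxtinsASAY/insASAY libraries, with *S100a4* at 0 throughout and *Fbn1* the highest. The sums ran in the order of *Plat*, and single markers did not all do so. *Fbn1* averaged 35.0 CPM in TbxtΔexon6/+ and 29.4 in wild-type, while *Col1a1*, named after its values were seen, averaged 10.2 and 13.0. Of the 7 tested fibroblast markers 2 rose and 1 fell in TbxtΔexon6/+ (42.9% beside 13.5%), 2 fell in TbxtΔexon6/Δexon6 (28.6% beside 12.7%) and 5 fell in TbxtinsASAY/insASAY (71.4% beside 21.3%). Of the 12 markers of primitive and parietal endoderm, tissue in which *Plat* is known to be made, 3 rose and 1 fell in TbxtΔexon6/+, or 33.3% beside 13.5% of all tested genes, with sums of 1054 to 1174 CPM against 1155 to 1247 in wild-type. In TbxtΔexon6/Δexon6 4 fell and 1 rose (41.7% beside 12.7%), with sums of 1055 to 1070 CPM, and in TbxtinsASAY/insASAY 2 fell (16.7% beside 21.3%), with sums of 884 to 933 CPM. *Sparc* was the highest of that list and *Foxa2* the lowest, with means over the 8 libraries of 451 and 0.46 CPM, and none of the 12 was without reads in any genotype. The 10 trophoblast markers summed to 35.2 to 36.8 CPM in wild-type, 30.9 to 31.1 in TbxtΔexon6/+, 22.6 to 27.0 in TbxtΔexon6/Δexon6 and 24.5 to 24.6 in TbxtinsASAY/insASAY, with *Prl3d1* and *Tpbpa* at 0 and *Tfap2c* the highest. Of its 7 tested genes 1 rose and 1 fell in TbxtΔexon6/+ (28.6% beside 13.5%), 3 fell in TbxtΔexon6/Δexon6 (42.9% beside 12.7%), and 1 rose and 3 fell in TbxtinsASAY/insASAY (57.1% beside 21.3%). Of the 13 ES cell markers, 7 fell and 2 rose in TbxtΔexon6/+, 6 fell in TbxtΔexon6/Δexon6 and 4 fell in TbxtinsASAY/insASAY, or 69.2%, 46.2% and 30.8%, beside 13.5%, 12.7% and 21.3% of all tested genes. *Lin28a* was the highest of them and *Klf4* the lowest, with means over the 8 libraries of 392.4 and 11.4 CPM. Of the primitive streak list *Eomes* was the highest, at 14.4 CPM, and *Msgn1* the lowest. The streak markers summed to 30.6 to 32.8 CPM in wild-type, 24.4 to 26.5 in TbxtΔexon6/+, 36.3 to 37.4 in TbxtΔexon6/Δexon6 and 35.5 to 39.1 in TbxtinsASAY/insASAY. The sum was lowest in TbxtΔexon6/+, where *Plaur* was lowest too, but single markers did not all follow it. *Eomes*, the largest part of the sum in wild-type, averaged 14.0 CPM there and 7.25 in TbxtΔexon6/+. *Tbxt* averaged 1.63 and 1.84 CPM in the same order. Of the 7 tested genes of the streak list, *Tbxt* among them, 1 rose and 2 fell in TbxtΔexon6/+ (42.9% beside 13.5%), 1 rose and 1 fell in TbxtΔexon6/Δexon6 (28.6% beside 12.7%), and 2 rose and 1 fell in TbxtinsASAY/insASAY (42.9% beside 21.3%). The part of these cell types in the values of the 4 genes was not tested.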

How the data were processed

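Reads were mapped by the authors with STAR 2.7.2a on mm10 (GRCm38), and the authors deposited its raw counts per gene, which are whole and were not scaled. The annotation they used is not given in the sources used here. Of the 3 counts per gene, that of the last column (reverse-stranded) was taken, and the forward-strand column held 4.11% to 4.78% of assigned reads. Symbols came from GENCODE M21 (48058 of 48440 identifiers matched, without version), and promoters from RefSeq (GRCm38.p6). STAR's 4 summary lines, present in 7 of 8 files, were left out. Groups were taken from the labels, which name WT, delE6/delE6, delE6/+ and Insert ASAY, and the design text of the series gives the insertion as homozygous (insASAY/insASAY).

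edgeR 4.0.16 in R 4.3.3 was run on the counts with filterByExpr (minimum count 10, minimum total 15) and TMM scaling. One quasi-likelihood model held the 8 libraries and gave 6 comparisons, with Benjamini-Hochberg adjustment over 17049 genes. Calls needed an adjusted p below 0.05 together with a log2 fold change of over 0.5 in size, the thresholds of the authors, who used DESeq2 1.40.2. CPM use TMM-scaled totals, and log2 CPM a prior count of 2. Python 3.11.15, pandas 2.3.3, numpy 2.4.6 and matplotlib 3.10.9 made the tables and plots. The fit was tested on simulated data, and the values of that test are not given here. p-values measure only the spread between these libraries.

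The 4 genes, the gene lists and the tests were chosen with earlier results of these data known. Named besides the 4 were *Tbxt*, *Plg*, *Serpinb2*, *Lrp1* and *Plgrkt*, up to 8 other called list genes per comparison with wild-type by smallest adjusted p (mean of at least 1 CPM), the 3 nearest genes, the genes on either side, and the extremes of each marker list. Other names were chosen after their values were seen: the AP-1 factors, *Ets1*, *Hpn*, *Kcnn4* and *Col1a1*. So were the values of a list gene in a comparison that did not name it. The alternatives were a DESeq2 1.42.0 test, edgeR with DESeq2's size factors, counts without strand, a minimum of 10 counts in each library or none at all, fits of only 2 genotypes, a replicate block, TREAT, and fits without each library in turn. Floors for a count of 0 cover counting error only. A further gene of the list is not reported here. Isoforms, proteins and the promoters of *Plau* and *Plat* were not analysed here.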

Additional observations from a re-analysis of the deposited data

How the results depend on the processing

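Of 264 alternative values of the 24 fold changes of the 4 genes, 260 kept their side of the thresholds. The TREAT test is not among these 264 and is given separately below. When each library was left out in turn, the genes of the 4 past the thresholds numbered 0 to 1 in TbxtΔexon6/Δexon6 against wild-type (*Serpine2* enters without the first TbxtΔexon6/Δexon6 library), 1 to 2 in TbxtinsASAY/insASAY against wild-type (*Plat* enters at -0.53 without the first TbxtinsASAY/insASAY library) and 1 to 2 in TbxtinsASAY/insASAY against TbxtΔexon6/Δexon6 (*Plau* leaves without either of the TbxtinsASAY/insASAY libraries). A lone library was assumed to vary like the other groups. List genes called in TbxtΔexon6/Δexon6 against wild-type numbered 10 to 19, with the lowest without the second TbxtΔexon6/Δexon6 library. Under the TREAT test, which asks for a change beyond 0.5, list genes called numbered 5 in TbxtΔexon6/Δexon6, 6 in TbxtΔexon6/+ and 10 in TbxtinsASAY/insASAY against wild-type and 3 in TbxtinsASAY/insASAY against TbxtΔexon6/Δexon6, where 0 of the 4 genes passed. The share of all tested genes that passed under TREAT is not given here, so nothing is read from the TREAT counts. The cause of these shifts was not tested, beyond the stricter null of TREAT. Replicate numbers did not pair the samples (correlations of same-numbered deviations -0.10 to 0.07), and with replicate number as a block 18, 13 and 20 list genes were called against wild-type, as without it. With 2 libraries per genotype, the depth of *Plau* (64 to 128 reads) and *Tbxt* (22 to 54) limits their precision.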
